A study of Mus musculus with 6 samples.

Results

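The iron storage and transport genes described here are 10 genes, Fth1, Ftl1, Ncoa4, Tfrc, Steap4, Slc11a1, Slc11a2, Slc40a1, Aco1 and Ireb2, found by their symbol among the 52636 genes listed in the deposited expression table. All 10 were listed in 1 row each, and 9 of them, all but Slc11a2, reached a mean of at least 1 TPM (transcript abundance with length taken out, each library scaled to the same total) over the libraries and so were tested. Those 9 were above 1 TPM in every library, so none passed the filter through 1 group alone. Cells take up iron bound to transferrin through the transferrin receptor, reduce it in endosomes and move it into the cytosol. They store what they do not use in ferritin, a shell of heavy and light subunits that holds iron in a form that does not drive oxidation, and export it through ferroportin. When iron is scarce, the iron regulatory proteins bind hairpins called iron responsive elements (IREs): at the start of an mRNA, as in ferritin, they block translation, and in the 3′ UTR, as in the transferrin receptor mRNA, they protect it from decay, so that only the latter kind of control is seen in mRNA levels. Neutrophils also hold secreted iron binding proteins in their granules, which keep iron from microbes.

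The study asked how LRP5, a member of the LDL receptor family, acts in neutrophils, and sequenced RNA of bone marrow neutrophils from C57BL/6N mice aged 10 weeks. There were 3 libraries labelled WT and 3 labelled LRP5-null, the latter from mice with the genotype LRP5f/f/Lyz2Cre+, that is, floxed Lrp5 alleles and a Cre placed in Lyz2, which is active in other myeloid cells as well as in neutrophils. The labels name cells from a Percoll gradient and an mRNA kit, while the methods describe cells sorted on CD11b and Ly6G and a stranded kit for total RNA. Nothing says whether each library came from a separate mouse, so p-values measure the spread between libraries, which may be technical.

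Lrp5 itself was 1.12, 1.31 and 1.42 TPM in the WT libraries and 1.68, 1.77 and 2.07 TPM in the libraries labelled LRP5-null. Each LRP5-null library thus held more Lrp5 transcript than each WT library, which is not the order that loss of the whole transcript would give. The table gives 1 value a gene, so a transcript without its floxed part cannot be told from a whole one. The directions given below are those of the labels. Lyz2, which carries the Cre insertion, was 25963 ± 1039 TPM in WT and 13792 ± 375 TPM in the libraries labelled LRP5-null (SD, n = 3 each), with no overlap and lower where the labels place the Cre. The libraries held 249841492 to 340580330 reads. Intronic reads were 7.78% to 9.0% in WT and 10.62% to 11.23% in LRP5-null. Coding or UTR reads were 83.84% to 87.03% in WT and 81.85% to 82.41% in LRP5-null. Both shares differed by label without overlap, so they cannot be told apart from the label. WT replicates 1 and 2 stood apart from the other 4 libraries: ribosomal reads were 1.2% and 1.3% of theirs, against 2.69% to 3.3% elsewhere, and GC-rich transcripts were low in them (Spearman −0.61 and −0.43 between GC content and a gene's deviation from its mean, over genes, which are not independent) and high elsewhere (0.33 to 0.44). All 10 neutrophil markers were above 1 TPM on average. Their sum was 389918 to 435145 TPM in WT and 419815 to 440940 TPM in LRP5-null, a large part of each library's total. Of the 10, 2 were higher in each LRP5-null library than in each WT library and 1 was lower, against 17.4% and 12.3% of all genes tested.

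Of the 10 genes, 4 hold the letters of a strict IRE motif in their UTRs. The motif searched was a C, any 5 bases, the loop CAGTG with any 1 base after it, and then 5 bases that pair with the first 5, with G-U pairs allowed, on the sense strand of GENCODE M1 protein-coding transcripts (NCBIM37, the assembly also called mm9). It was found in the 5′ UTR of 0.166% of 19854 genes and in the 3′ UTR of 0.623% of 19915 genes. The matches are shown because they are what separates ferritin and ferroportin, with the hairpin at the start, from the transferrin receptor, with the hairpin after the stop codon. Each is 30 bases, 5′ to 3′, and capitals mark the loop.
Fth1, 5′ UTR, chr19:10057221-10057250, plus strand: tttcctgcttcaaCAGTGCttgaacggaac
Ftl1, 5′ UTR, chr7:52715149-52715178, minus strand: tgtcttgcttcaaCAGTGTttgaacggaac
Slc40a1, 5′ UTR, chr1:45982310-45982339, minus strand: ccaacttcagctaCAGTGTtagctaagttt
Tfrc site 1, 3′ UTR, chr16:32631304-32631333, plus strand: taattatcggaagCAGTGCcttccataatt
Tfrc site 2, 3′ UTR, chr16:32631683-32631712, plus strand: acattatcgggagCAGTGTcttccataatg
Tfrc site 3, 3′ UTR, chr16:32631748-32631777, plus strand: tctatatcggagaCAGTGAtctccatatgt
Tfrc site 4, 3′ UTR, chr16:32631795-32631824, plus strand: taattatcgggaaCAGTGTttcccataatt

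The Fth1 and Ftl1 sites shared 27 of 30 bases, while the Slc40a1 site shared 13 of 30 with each of them. The 4 Tfrc sites shared 18 to 25 of 30 bases among themselves and 9 to 14 with the ferritin sites. They began 882, 1261, 1326 and 1373 bases into a 3′ UTR of 2458 bases, and the 5′ UTR sites began at base 29 of 167 in Fth1, 77 of 253 in Ftl1 and 101 of 331 in Slc40a1. In the other 6 genes, Slc11a2 among them, no stretch of UTR had these letters in the transcripts searched, which says nothing of whether a protein binds there. An element with another loop, an unpaired base in the stem or a place in a transcript not searched would be missed. The matches, in Tfrc as well, are thus not a full count of IREs. Among the wider iron genes described further below, Alas2 matched in the 5′ UTR and Bola3 in the 3′ UTR. A match is a description of letters, and the table gives 1 value a gene, so isoforms with and without a site were not told apart.

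**Figure D1:**
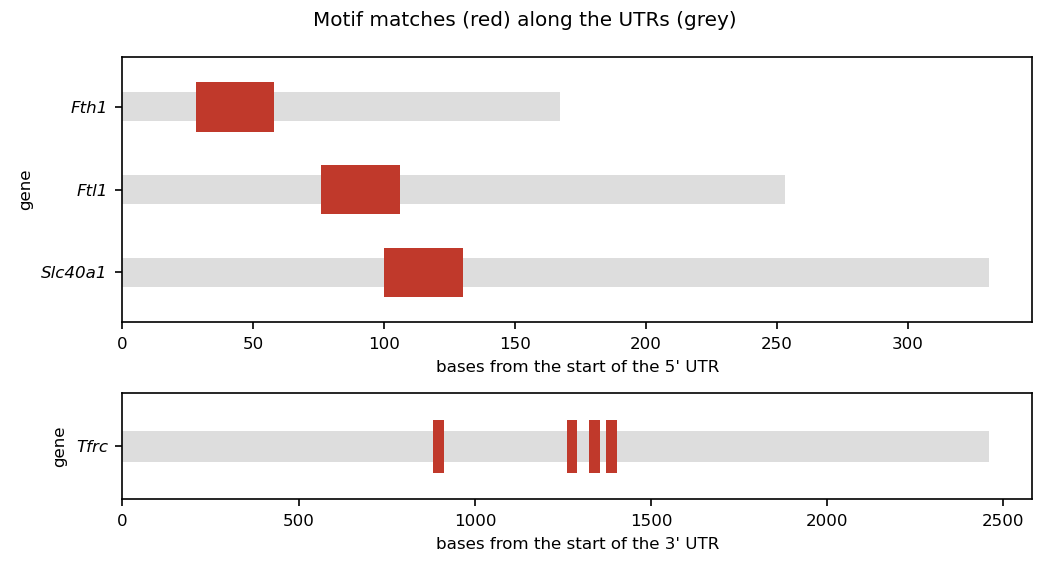
Each grey bar is a UTR drawn to scale in bases from its start, and red blocks are the 30-base stretches that hold the motif. Fth1, Ftl1 and Slc40a1 have 1 block each in the 5′ UTR, and Tfrc has 4 in the 3′ UTR, of which the last 3 lie close together.

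The level of these genes in neutrophils ranged widely, from ferritin at the top to Slc11a2, and their order was the same in all 6 libraries. Fth1 came first, with a mean of 2667 TPM, followed by Ftl1 with 999 TPM, Slc40a1 with 173 TPM, Slc11a1 with 140.5 TPM and Ncoa4 with 84.6 TPM. Ireb2 at 21.6 TPM, Steap4 at 16.2 TPM, Tfrc at 6.75 TPM, Aco1 at 2.11 TPM and Slc11a2 at 0.0793 TPM followed. No neighbours in this order overlapped in their range over the libraries. The closest were Slc40a1, at 168 TPM in its lowest library, and Slc11a1, at 153 TPM in its highest, and then Ireb2, at 19.5 TPM in its lowest, and Steap4, at 18.0 TPM in its highest. Fth1 ranked 28th of the 9775 genes tested and Ftl1 75th, and the exporter Slc40a1 was above 94.5% of them, whereas Tfrc was above 37.5%.

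When LRP5-null was compared with WT, none of the 9 iron genes tested differed after adjustment. The fit was limma with a mean-variance trend on log2(TPM + 1), with Benjamini-Hochberg adjusted p over 9775 genes, of which 52 (0.532%) were called, 26 higher and 26 lower. With TPM rescaled without the most abundant genes that split was 69 to 27, and with GC and length trends removed 157 to 260. At an unadjusted p under 0.05 there were 2 of the 9 iron genes, Steap4 and Ireb2, both lower in LRP5-null, where 23.5% of all genes were under it. The groups did not overlap, LRP5-null above WT, for 1 of the 9 (Aco1), against 17.4% of all genes. They did not overlap with LRP5-null below WT for 3 of the 9 (Fth1, Ireb2 and Steap4), against 12.3% of all genes. The median log2 fold change (log2FC, positive where LRP5-null was higher) of the 9 was 0.02, and that of all genes tested was 0.04. Without WT replicate 3, 2 of the 9 were called, Ireb2 and Slc11a1, in a fit that called 1920 of 9775 genes (19.6%). That fit keeps only replicates 1 and 2 as WT. Their low ribosomal share and their GC trend cannot be told apart from the label in it, here and wherever it is given below. Every other alternative with more than 1 WT library called 0 of the 9. The fit against WT replicate 3 alone has 1 WT library and so holds no spread among WT libraries.

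**Figure D2:**
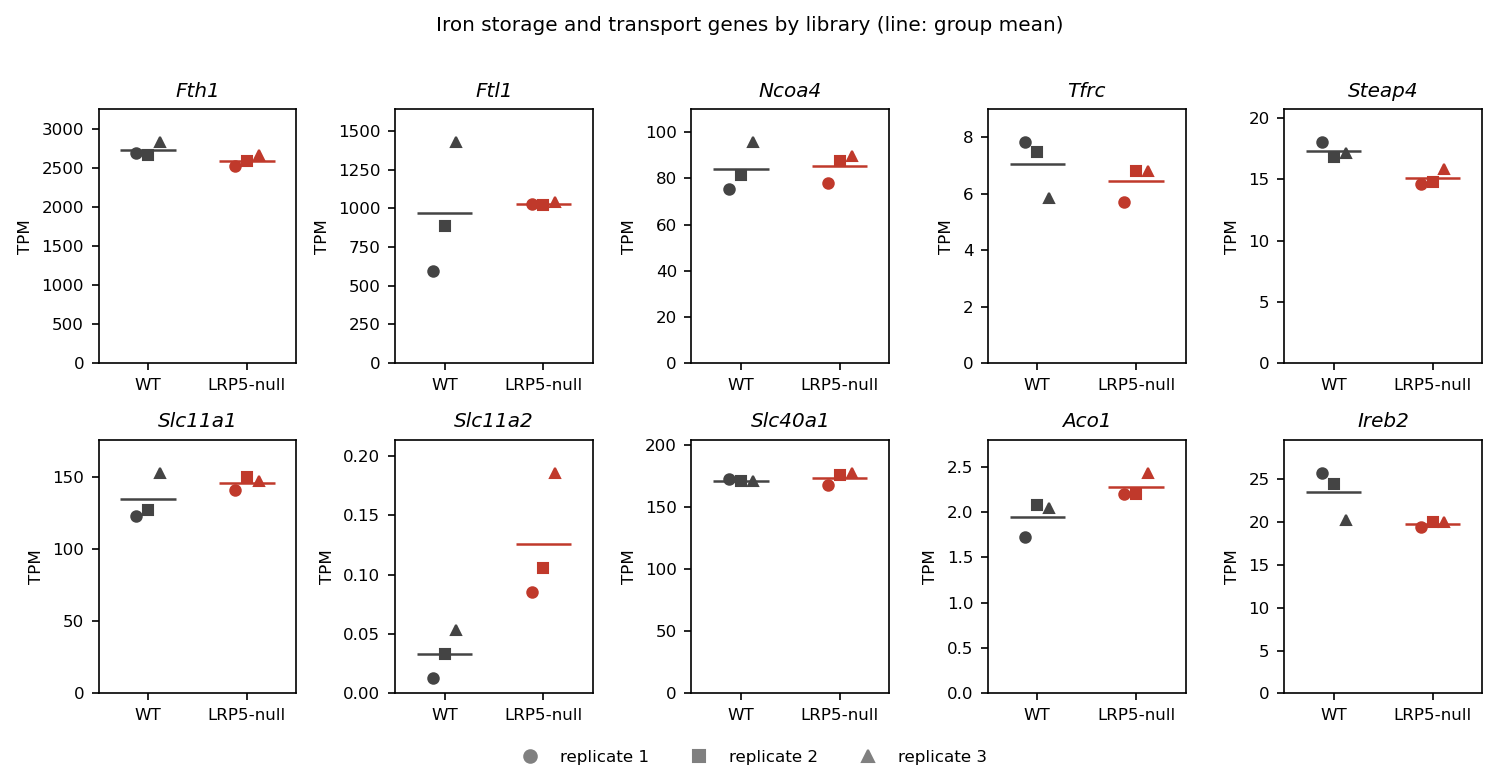
TPM of the 10 iron genes (y axis, from 0, a scale for each gene) in the 3 WT and 3 LRP5-null libraries, with a point for each library, its shape giving the replicate number, and a line at the group mean. Ftl1 is spread from 595 to 1427 TPM in WT and lies within 1020.3 to 1039 TPM in LRP5-null, while Slc40a1 stays between 168 and 178 TPM in all 6.

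Ferritin heavy chain mRNA was high and even. Fth1, which encodes the subunit that oxidises iron as it enters the shell, was 2698, 2669.9 and 2833 TPM in WT replicates 1 to 3 and 2533, 2601 and 2667 TPM in LRP5-null replicates 1 to 3. Each LRP5-null library lay below each WT library, but the highest of the former and the lowest of the latter were only 3.20 TPM apart. The means were 2734 ± 87.0 and 2600.3 ± 66.6 TPM (SD, n = 3 each), a log2FC of −0.07 (standard error, SE, 0.055, 95% interval −0.20 to 0.06, limma adjusted p = 0.458). With each library's trend with GC content and transcript length removed it was −0.18 (limma adjusted p = 0.0523, against 0.717 at the highest of its 18 alternatives).

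Of the 9 iron genes tested, ferritin light chain mRNA was, on the log2 scale, the most variable among WT libraries and the most even in LRP5-null. Ftl1, whose subunit helps the mineral core form, was 595, 888 and 1427 TPM in WT and 1028, 1020.3 and 1039 TPM in LRP5-null. All LRP5-null values were inside the WT range, and the WT libraries, close to one another in Fth1, were far apart in Ftl1. On the log2 scale its SD was 0.63 in WT, larger than that of 98.6% of the 974 genes whose mean reached 100 TPM, and 0.013 in LRP5-null, larger than that of 6.16% of them. Its log2FC was 0.18 (SE 0.27, 95% interval −0.46 to 0.81, limma adjusted p = 0.723). Its direction depended on the WT libraries used. The log2FC was 0.50 without WT replicate 3 (limma adjusted p = 0.0660) and −0.47 against WT replicate 3 alone. Over the alternatives the limma adjusted p of Ftl1 ran from 0.0660 to 0.971.

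The ferritin subunits make short mRNAs with pseudogene copies, and 5 rows of ferritin pseudogenes summed to 6.17 to 9.07 TPM, so reads split to those rows were few beside the genes. Reads shared between copies could have been counted in ways that the table does not show. Per library, the ratio of Fth1 to Ftl1 TPM was 4.53, 3.01 and 1.99 in WT and 2.47, 2.55 and 2.57 in LRP5-null. The LRP5-null ratios sat within the WT range. On the log2 scale the mean ratio was 1.59 ± 0.60 in WT and 1.34 ± 0.031 in LRP5-null (SD, n = 3 each), a difference of −0.25 (exact permutation test, two-sided, p = 0.7, or 0.933 after Benjamini-Hochberg adjustment over 4 such tests). The smallest p that 3 libraries against 3 allow is 0.1.

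Summed ferritin mRNA overlapped between the groups. Fth1 and Ftl1 together gave 3293, 3558 and 4259 TPM in WT and 3561, 3621 and 3705 TPM in LRP5-null, or 0.329% to 0.426% of all transcripts listed. The highest and the lowest value were both WT. The difference of the log2 sums was −0.02 (exact permutation test, two-sided, p = 1), and 0.08 without WT replicate 3 (exact permutation test, p = 0.1).

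Ncoa4, the receptor that carries ferritin to the lysosome for breakdown, overlapped between groups. It was 75.4, 81.3 and 95.5 TPM in WT and 78.2, 87.4 and 89.9 TPM in LRP5-null. WT held both the lowest and the highest value. The log2FC was 0.02 (SE 0.10, 95% interval −0.22 to 0.26, limma adjusted p = 0.912).

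Of the uptake genes, Tfrc was low and Steap4 was lower in each LRP5-null library than in each WT library. Tfrc, the transferrin receptor, with 4 matches to the motif in the 3′ UTR, was 7.82, 7.49 and 5.84 TPM in WT and 5.71, 6.81 and 6.81 TPM in LRP5-null. WT replicate 3 lay among the LRP5-null libraries, and the other WT libraries lay above all of them. The log2FC was −0.11 (SE 0.12, 95% interval −0.39 to 0.17, limma adjusted p = 0.611, from 0.137 to 0.910 over its alternatives), and 0.12 against WT replicate 3 alone. Set against Fth1 within each library, Tfrc stood at 0.00290, 0.00281 and 0.00206 of the Fth1 level in WT and 0.00225, 0.00262 and 0.00255 in LRP5-null. These ratios overlapped, with a difference of −0.05 on the log2 scale (exact permutation test, two-sided, p = 0.7).

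Steap4, a metalloreductase that reduces iron and copper, was 18.0, 16.8 and 17.2 TPM in WT and 14.6, 14.8 and 15.9 TPM in LRP5-null. The groups were 0.938 TPM apart at their nearest libraries, and WT replicate 3 sat between the other WT libraries. The means were 17.3 ± 0.62 and 15.1 ± 0.68 TPM (SD, n = 3 each). Steap4 had a log2FC of −0.19 (SE 0.072, 95% interval −0.36 to −0.02, limma adjusted p = 0.181), and in its 18 alternatives it ranged from −0.23 to −0.11 without a change of sign (limma adjusted p from 0.103 to 0.425). Alternatives that change only the filter, the variance model or the replicate block could not change this log2FC.

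Slc11a1 and Slc11a2 encode proton-coupled metal transporters of the same family, and neutrophils held nearly all of this mRNA as Slc11a1. Slc11a1, known as NRAMP1, moves metal ions out of phagosomes, and C57BL/6 mice are known to carry an allele whose protein does not work. It was 123, 127 and 153 TPM in WT and 141, 150.4 and 147 TPM in LRP5-null. WT replicate 3 was the highest of all and the other WT libraries were the lowest. The log2FC was 0.12 (SE 0.092, 95% interval −0.09 to 0.34, limma adjusted p = 0.444). It was 0.22 without WT replicate 3 (limma adjusted p = 0.0455) and −0.07 against that library alone (limma adjusted p = 0.632, with 0.953 the highest of its alternatives).

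Slc11a2, known as DMT1, takes iron out of endosomes and into gut cells. It was 0.0128, 0.0330 and 0.0533 TPM in WT and 0.0850, 0.106 and 0.186 TPM in LRP5-null. Each LRP5-null library was above each WT library, at levels where 1 read weighs heavily and TPM does not give the count. Below 1 TPM it was not tested with the other genes, and with no filter on low values its log2FC of TPM + 1 was 0.12 (limma adjusted p = 0.243). The Slc11a1 to Slc11a2 ratio was 9611, 3866 and 2871 in WT and 1658, 1420.1 and 793 in LRP5-null. All LRP5-null ratios lay below all WT ratios, with a log2 difference of −1.95 (exact permutation test, two-sided, p = 0.1, which no 3 against 3 can go below, and 0.4 after adjustment over the 4 tests). That difference comes mainly from the denominator, a gene near the bottom of the table.

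**Figure D3:**
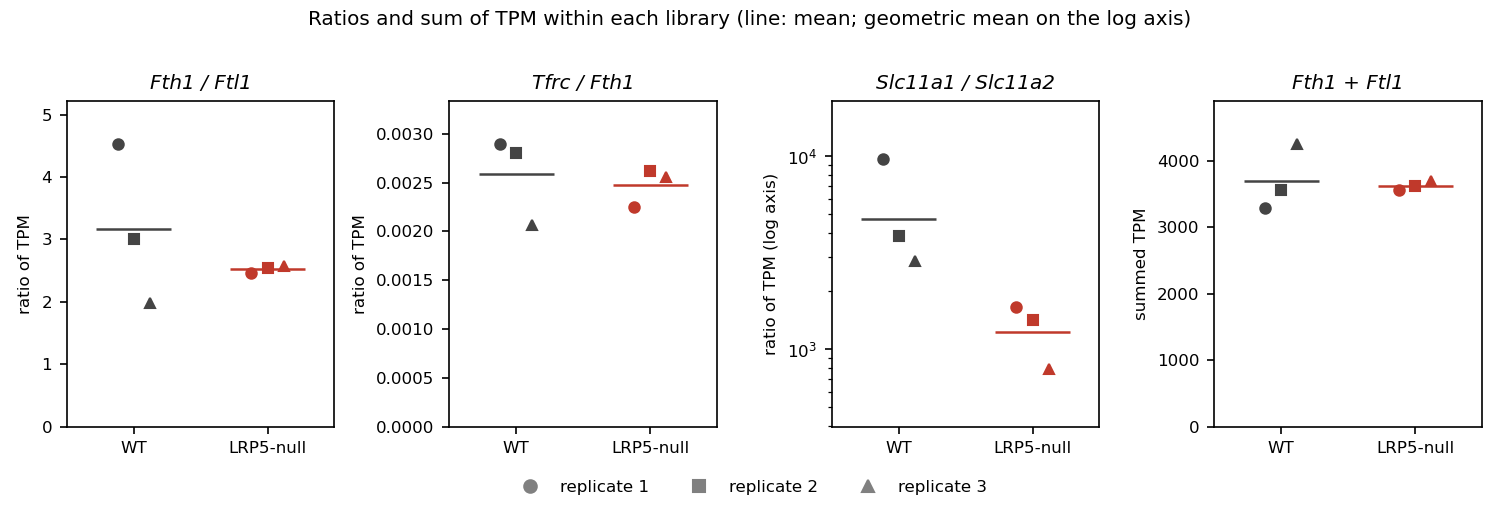
Ratios of TPM within a library, and the ferritin sum in TPM, for 3 WT and 3 LRP5-null libraries, with a point for each library and lines at the means. The Fth1 to Ftl1 ratio spreads from 1.99 to 4.53 in WT against 2.47 to 2.57 in LRP5-null, and only the ratio of Slc11a1 to Slc11a2 (log axis) separates the groups.

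Slc40a1 was steady across all libraries. It encodes ferroportin, the known exporter of iron from cells, and carries the 5′ UTR site shown above. It was 172.5, 170.8 and 170.9 TPM in WT and 168.2, 175.9 and 177.8 TPM in LRP5-null. The WT libraries lay within the LRP5-null range, with means of 171.4 ± 0.996 and 174 ± 5.09 TPM (SD, n = 3 each). Its SD on the log2 scale in WT was larger than that of only 0.308% of the 974 genes of at least 100 TPM. The log2FC was 0.02 (SE 0.059, 95% interval −0.12 to 0.16, limma adjusted p = 0.856), −0.02 with median-ratio scaling and 0.12 with GC and length trends removed (limma adjusted p = 0.163, the lowest of its alternatives, the highest being 0.982).

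The iron regulatory proteins differed in level, and their groups stood in opposite order, neither past adjustment. Aco1 encodes IRP1, which is an aconitase while it holds an iron-sulfur cluster and binds IREs without it, and was 1.73, 2.07 and 2.04 TPM in WT and 2.20, 2.19 and 2.43 TPM in LRP5-null. All LRP5-null libraries were higher, by 0.118 TPM at the nearest. Aco1 had a log2FC of 0.15 (SE 0.086, 95% interval −0.05 to 0.35, limma adjusted p = 0.319), and it was above 0 in all 17 alternatives that held it (limma adjusted p from 0.209 to 0.690). Some of those leave the log2FC as it was by construction, as for Steap4.

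Ireb2 encodes IRP2, which is degraded when iron is plentiful, and was 25.7, 24.5 and 20.2 TPM in WT and 19.5, 19.96 and 19.94 TPM in LRP5-null. WT replicate 3 was 0.279 TPM above the highest LRP5-null library, and the other WT libraries stood well above both. The means were 23.5 ± 2.87 and 19.8 ± 0.29 TPM (SD, n = 3 each). Its log2FC was −0.23 (SE 0.098, 95% interval −0.46 to −0.0014, limma adjusted p = 0.211). Without WT replicate 3 it was −0.33 (limma adjusted p = 0.0221) and against that library alone −0.03 (limma adjusted p = 0.847, the highest of its alternatives), and with GC and length trends removed it was −0.04 (limma adjusted p = 0.599). In each library Ireb2 exceeded Aco1, by 14.9, 11.8 and 9.93 times in WT and by 8.84, 9.10 and 8.20 times in LRP5-null.

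**Figure D4:**
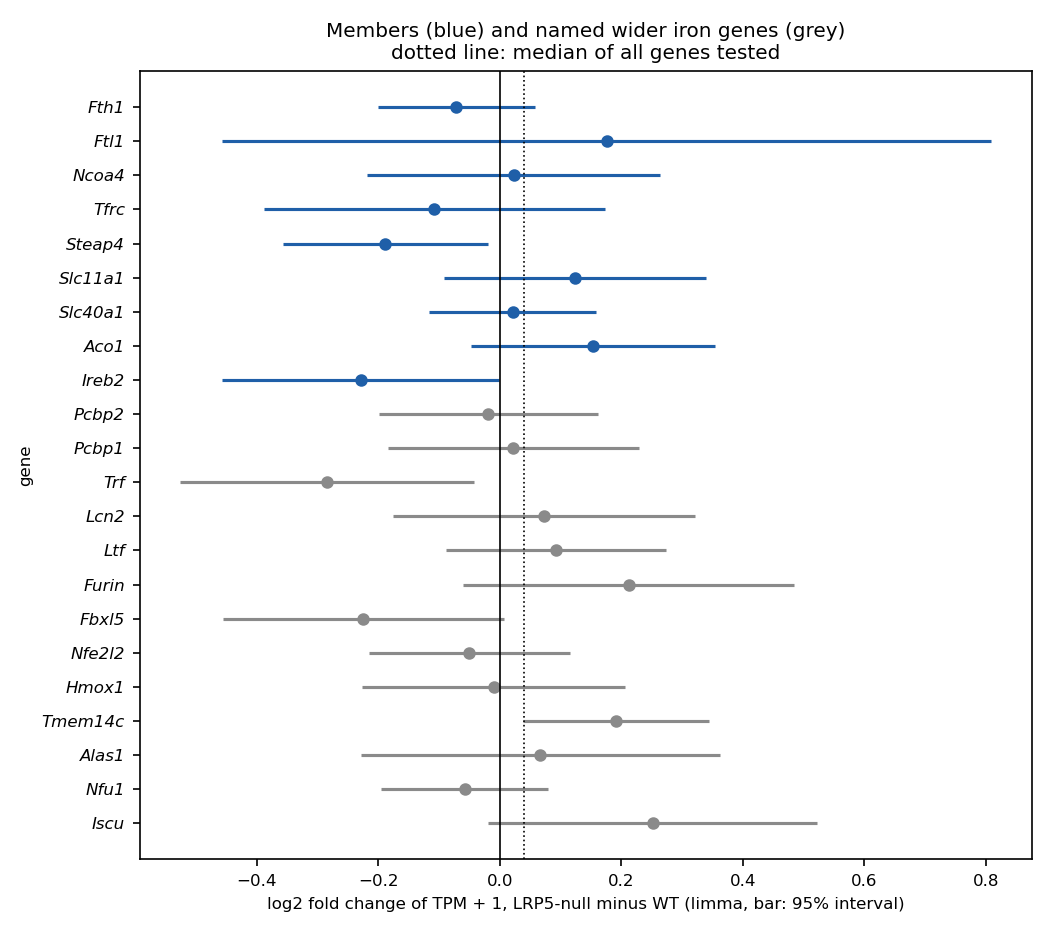
Log2FC of TPM + 1 (x axis, LRP5-null minus WT, limma, with the 95% interval as a bar) of the 9 tested iron genes in blue and of 13 named genes of the wider iron list in grey, with a dotted line at the median of all genes tested, 0.04. Ftl1 has the widest interval, and the intervals of Steap4, Ireb2, Trf and Tmem14c leave out 0 before adjustment.

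The libraries differed in GC trend and ribosomal share, and several iron genes moved with both. Ireb2 (39.1% GC in the longest protein-coding transcript) and Tfrc (39.8%), the lowest of the 10 in GC content, were highest in WT replicates 1 and 2. Ftl1 (58.1%) and Slc11a1 (55.1%), the highest in GC content, were lowest in those libraries. Slc40a1 (43.7%) and Ncoa4 (43.8%) did not follow the same order, with Slc40a1 nearly flat and Ncoa4 lowest in WT replicates 1 and 2 and LRP5-null replicate 1. WT replicate 3 lay outside the range of the other WT libraries for 6 of the 9 genes (79.3% of all genes tested) and nearer than their mean to the LRP5-null mean, on the log2 scale, for 6 of the 9 (62.9% of all genes tested). With ribosomal share as a covariate the log2FCs of Ftl1 and Slc11a1 were −0.27 and −0.0088, and that of Tfrc was 0.03, each of the opposite sign to the fit without it. Libraries of low ribosomal share were all labelled WT, so this share and the label cannot be told apart among them.

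**Figure D5:**
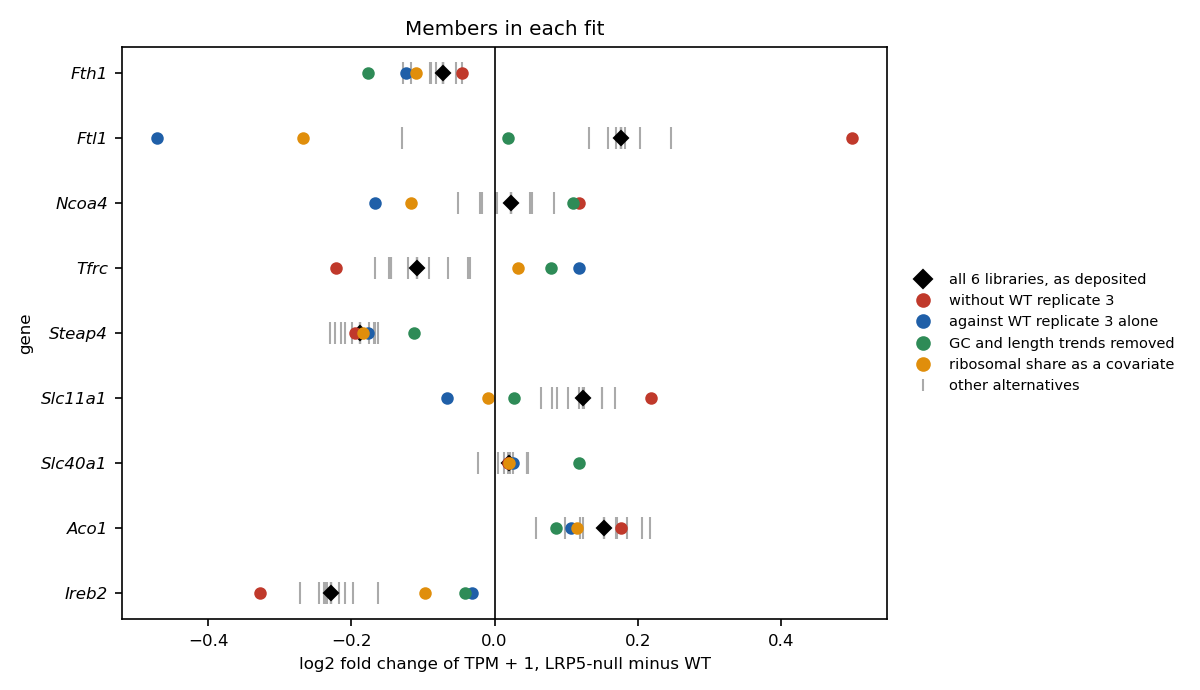
Log2FC of TPM + 1 (x axis, LRP5-null minus WT) of the 9 tested iron genes in the fit of all 6 libraries (black diamond) and in the alternatives, with 4 of them in colour and the others as grey ticks. Steap4, Fth1, Aco1 and Ireb2 stay on their side of 0 throughout, while Ftl1 runs from −0.47 to 0.50. Fits with other filters, no trend, robust shrinkage or a replicate block coincide with the diamond by construction.

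Other cell types can bring iron genes into a neutrophil preparation, and their markers were low. In such bulk RNA, fewer cells of a type and less RNA per cell cannot be told apart. Of 14 erythroid markers 12 were listed: 4 globin genes were above 1 TPM on average and the other 8, among them Klf1 and Epor, were below it, with 0 at zero in all libraries. The erythroid sum was 48.1 to 56.97 TPM in WT and 42.8 to 54.2 TPM in LRP5-null, most of it from globin genes. Of the 12 erythroid markers listed, 4 were higher in each LRP5-null library than in each WT library, and 1 was lower (Hba-a1). The 4 were Slc4a1, Klf1, Ermap and Rhag, each below 1 TPM. Over all genes tested, whose mean was at least 1 TPM, 17.4% were higher and 12.3% lower in this way. The part of erythroid cells in the iron genes was not tested. Of 12 macrophage and monocyte markers, 7 were higher in each LRP5-null library than in each WT library and 1 was lower (Cx3cr1). The shares over all genes tested were again 17.4% and 12.3%. Csf1r, the most abundant of the 12, overlapped at 31.4 to 41.0 TPM in WT and 36.9 to 42.5 TPM in LRP5-null. The sum of the 12 was 60.2 to 72.2 TPM in WT and 71.6 to 80.01 TPM in LRP5-null, and Adgre1, which encodes F4/80, was 10.3 to 12.6 and 14.4 to 15.6 TPM. Macrophages are rich in Slc40a1 and Slc11a1, and the part of these cells in the values of both genes was not tested.

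Markers of neutrophil stage stood apart by label as well. Of 10 genes of immature neutrophils, 7 were higher in each LRP5-null library than in each WT library, against 17.4% of all genes tested. The sums of all 10 were 6057 to 6728 TPM in WT and 6835 to 7144 TPM in LRP5-null. Most of each sum came from 1 gene, Chil3, with a mean of 6161 TPM. Of 10 genes of mature neutrophils, 4 were lower without overlap, against 12.3% of all genes tested. The sums of all 10 were 17527 to 18013 TPM in WT and 15290 to 16314 TPM in LRP5-null. None of either list was called by limma. The B cell sums overlapped, at 11.9 to 12.9 TPM in WT and 11.5 to 12.7 TPM in LRP5-null. Those of the 3 remaining lists were low, and higher in LRP5-null without overlap. The T and NK cell sum was 11.3 to 12.3 and 14.8 to 16.2 TPM. Most of it came from 1 gene, Cd3d, at 9.33 to 10.6 TPM in WT and 13.4 to 14.5 TPM in LRP5-null. Cd3d alone of the 6 markers reached a mean of 1 TPM, and it alone was higher without overlap. Cd2 was lower without overlap, at 0.821 to 0.895 TPM in WT and 0.650 to 0.740 TPM in LRP5-null. The platelet and megakaryocyte sum was 3.74 to 5.38 and 5.75 to 6.65 TPM. The eosinophil and basophil sum was 10.6 to 13.1 and 13.9 to 15.1 TPM, with Prg2, an eosinophil granule gene, called at a log2FC of 0.91 (limma adjusted p = 0.0341). Prg2 was low, at a mean of 1.91 TPM. Siglecf, the most abundant of the 6 markers in that list at a mean of 8.37 TPM, overlapped between groups (log2FC 0.03, limma adjusted p = 0.848). How far the mix of stages or cell types bears on the iron genes was not tested.

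Around these 10 genes, 82 further genes of iron, heme and iron-sulfur cluster handling were listed, of which 48 were tested. None was called by limma, 9 had an unadjusted p under 0.05 and were higher in LRP5-null, and 1 was lower, against 23.5% of all genes in either direction. Their median log2FC was 0.07, against 0.04 for all genes. Without WT replicate 3, 10 of the 48 (20.8%) were called, against 19.6% of all genes in that fit, and with GC and length trends removed 1 was called, Trf. In groups that did not overlap, 11 of the 48 were above WT in LRP5-null and 3 below, against 17.4% and 12.3% of all genes.

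Lcn2 and Ltf, of the secreted iron binding proteins, were above every other iron gene in each library. Lcn2, which encodes the lipocalin that captures bacterial siderophores, was 9282, 9189.5 and 11534 TPM in WT and 10335, 9629 and 11509 TPM in LRP5-null. Ltf, which encodes lactoferrin, the iron binding protein of specific granules, was 7393, 7731 and 8807 TPM in WT and 8120.4, 8489 and 8854 TPM in LRP5-null. For both, the groups overlapped, with log2FCs of 0.07 and 0.09 (limma adjusted p = 0.706 and 0.496), and both were below 0 with quantile normalization, with ribosomal share as a covariate and against WT replicate 3 alone. Of the 4 genes in this group 3 were tested and 0 called.

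Transferrin mRNA was the only gene of the wider uptake group, of 11, that was tested, and each WT library held more of it than each LRP5-null library. Trf, whose product carries iron in plasma, was 75.3, 84.1 and 99.3 TPM in WT and 72.4, 69.7 and 68.5 TPM in LRP5-null. Of the WT libraries, replicate 3 was the farthest from LRP5-null. The log2FC was −0.28 (SE 0.10, limma adjusted p = 0.169). It was −0.35 with GC and length trends removed (limma adjusted p = 0.0457, against up to 0.379 over its alternatives). Hfe, the hemochromatosis protein gene and next in level, was 0.0832 to 0.234 TPM in WT and 0.295 to 0.421 TPM in LRP5-null, and Tfr2, Steap3 and the other genes of the group were below the filter.

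The genes that set or follow the regulatory proteins did not pass adjustment. Fbxl5 encodes the iron-sensing ubiquitin ligase subunit that has IRP2 degraded. It was 316, 246 and 255 TPM in WT and 231, 235 and 228 TPM in LRP5-null. All LRP5-null libraries were below all WT libraries, and WT replicate 1 stood apart from the other WT libraries. Fbxl5 had a log2FC of −0.22 (SE 0.099, limma adjusted p = 0.222). In the export and hepcidin group 1 of 8 genes was tested, Furin, a protease gene, at 59.6, 68.5 and 82.0 TPM in WT and 76.2, 81.4 and 84.6 TPM in LRP5-null. Its log2FC was 0.21 (limma adjusted p = 0.309), and 0.33 without WT replicate 3 (limma adjusted p = 0.0412, against 0.804 with ribosomal share as a covariate). Hamp, the gene of the hormone hepcidin, which has ferroportin degraded, was at 0 in 5 libraries and at 0.0395 TPM in WT replicate 2.

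Storage chaperones and heme breakdown genes overlapped between groups where they were most abundant. Pcbp2 and Pcbp1, which encode chaperones that deliver iron to ferritin, had log2FCs of −0.02 and 0.02 (limma adjusted p = 0.902 and 0.898). Pcbp2 was 122 to 137 TPM in WT and 119 to 132 TPM in LRP5-null, and Pcbp1 was 77.2 to 92.9 and 81.6 to 90.2 TPM, and both changed sign in some alternatives. Nfe2l2, the gene of the transcription factor NRF2, a known activator of ferritin genes, was 111 to 123 and 108 to 119 TPM, a log2FC of −0.05 (limma adjusted p = 0.693). Hmox1, heme oxygenase 1, which frees iron from heme, was 51.3 to 63.5 and 53.3 to 58.4 TPM, a log2FC of −0.01 (limma adjusted p = 0.957). Of the 9 heme uptake, export and breakdown genes tested, 5 were higher and 4 lower in LRP5-null, where 5752 of all 9775 genes tested were higher, and 0 were called.

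Heme synthesis and iron-sulfur cluster genes were mostly a little higher in the LRP5-null libraries, with 0 called. So were 5752 of all 9775 genes tested. Of 8 heme synthesis genes tested 6 were higher, with a median log2FC of 0.07, and of 20 mitochondrial iron and cluster genes tested 16 were higher, with a median of 0.10, against 0.04 for all genes. With quantile normalization 4 of the 8 and 13 of the 20 were higher, with medians of 0.024 and 0.065, against 0.0022 for all genes. With GC and length trends removed 4 of the 8 and 12 of the 20 were higher, with medians of 0.012 and 0.12. Tmem14c, a carrier of heme precursors in mitochondria, was 85.2, 91.5 and 93.7 TPM in WT and 104.8, 101.4 and 102.6 TPM in LRP5-null. The groups were 7.72 TPM apart, for a log2FC of 0.19 (SE 0.066, limma adjusted p = 0.158, and over its alternatives up to 0.370, the lowest being 0.0490 when WT replicate 3 was left out). Alas1, the first enzyme of heme synthesis outside red cells, overlapped at 65.9 to 89.0 and 70.0 to 85.7 TPM, a log2FC of 0.07 (limma adjusted p = 0.780). Nfu1, which hands clusters to target proteins, was 90.3 to 93.4 TPM in WT and 87.7 to 88.8 TPM in LRP5-null. The groups did not overlap, yet the log2FC was −0.06 (limma adjusted p = 0.576). Iscu, the scaffold on which clusters are built, was 55.3, 59.6 and 73.3 TPM in WT and 67.9, 76.6 and 79.1 TPM in LRP5-null. WT replicate 3 lay among the LRP5-null libraries, and the log2FC was 0.25 (limma adjusted p = 0.238), and 0.37 without WT replicate 3 (limma adjusted p = 0.0327, against up to 0.935 over its alternatives). The median of the wider genes was −0.0072 with GC and length trends removed, where that of all genes was −0.00033.

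For each tested iron gene, the 1 other gene with the nearest pattern over the 6 libraries was sought by the root mean square difference of mean-centred log2(TPM + 1). For Ftl1 it was Vsig10l (difference 0.094, against a spread of 0.37 in Ftl1 itself), at 8.73, 12.01 and 18.2 TPM in WT and 13.2, 14.8 and 14.2 TPM in LRP5-null. For Ireb2 it was Herc4 (0.020 against 0.15), for Steap4 Helb (0.0084 against 0.10), for Fth1 Arnt (0.011 against 0.049) and for Tfrc Uri1 (0.021 against 0.15). For Slc11a1 it was Nod1 (0.017 against 0.12), for Aco1 Gtf3c5 (0.013 against 0.10), for Ncoa4 Fen1 (0.011 against 0.12) and for Slc40a1 Myl12b (0.017 against 0.027). With 6 libraries and 9775 genes a close match is easily found, so these are descriptions of pattern.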

How the data were processed

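The data are 6 RNA libraries of mouse bone marrow neutrophils, 3 of each label. The authors aligned reads to the mouse genome (mm9 in the labels and methods), name DESeq2 for quantification and deposited TPM. The tool that gave TPM is not given in the sources used here, and the gene identifiers postdate mm9. The deposited read summary holds counts of reads, shares in percent, a ratio of end to whole-transcript coverage, a score of how coverage varies, and lengths in bases. It lists paired-end reads where the methods name single-end reads.

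limma 3.58.1 (R 4.3.3) was run with a trend and no covariate on log2(TPM + 1) of the 9775 genes whose mean reached 1 TPM, a scale that shrinks changes of low genes, with Benjamini-Hochberg adjustment over all of them. No count model was used, since TPM holds no counts and gives no depth for a single gene. Ratios were compared with exact permutation tests. The fit was tested on simulated data with independent noise for each gene and library. Those data lacked the GC and ribosomal differences between libraries, so they do not show how the fit acts under them. GC content and length came from the longest protein-coding GENCODE M1 transcript and covered 89.7% of tested genes. The members and lists were chosen with earlier results of these data known. The text names all members, the 2 most abundant genes and any called gene of each wider group, the nearest pattern for each member, and Lrp5 and Lyz2. Other genes, namely Prg2, Adgre1, Slc4a1, Ermap, Rhag, Hba-a1, Klf1, Epor, Tfr2, Steap3, Alas2 and Bola3, were named after their values were seen. So were the markers Csf1r, Cx3cr1, Cd3d, Cd2, Siglecf and Chil3. Alternatives were another pseudocount (0.1), other filters (none, 5 TPM), median-ratio, quantile and rescaled TPM, limma with robust shrinkage or no trend, leaving out each library, a replicate block, ribosomal share, WT replicate 3 alone, and GC and length trends removed. Some genes of the lists are not reported here by name, and lipidomic and other experiments were not analysed here.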

Additional observations from a re-analysis of the deposited data

How the results depend on the processing

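Over 18 alternatives (17 for Aco1), the log2 fold changes of the 9 tested iron genes kept their sign and their side of the threshold in 145 of 161 pairs of gene and alternative, 2 passed the threshold and 14 changed sign. Those of the 13 named wider genes (17 alternatives for Lcn2 and Ltf) did so in 201 of 232, with 4 passing the threshold and 27 changing sign. Other filters, a fit without a trend, robust shrinkage and the replicate block leave each log2 fold change as it was. No sign could change in those alternatives, so part of both counts was fixed in advance. The count of iron genes called ran from 0 to 2 and that of wider genes from 0 to 10 with a library left out, the highest without WT replicate 3, and 1 wider gene was called with GC and length trends removed. Over all genes, where 52 were called, the count was 2 to 1920 with a library left out, 417 with GC and length trends removed, 96 with rescaled TPM, 29 with a mean of at least 5 TPM, 6 with ribosomal share as a covariate, and 3 with no filter. The causes were not tested. The median of the iron genes was −0.051 to 0.045 with a library left out, −0.097 with ribosomal share as a covariate and −0.067 against WT replicate 3 alone. The median of the wider genes was 0.044 to 0.097 with a library left out, and 0.025, 0.0010 and −0.0072 with ribosomal share, WT replicate 3 alone and GC and length trends removed.

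With a library left out, the log2 fold changes ranged from −0.13 to 0.50 in Ftl1, −0.051 to 0.12 in Ncoa4, −0.059 to 0.036 in Pcbp2, −0.032 to 0.10 in Pcbp1, −0.078 to 0.073 in Hmox1 and −0.028 to 0.19 in Alas1. The log2 ratio of Fth1 to Ftl1 then differed by −0.55 to 0.049, that of Tfrc to Fth1 by −0.21 to 0.039, that of Slc11a1 to Slc11a2 by −2.31 to −1.44, and the ferritin sum by −0.10 to 0.084. The ferritin ratio turned positive without WT replicate 1, and the Tfrc ratio without WT replicate 1 (0.039), WT replicate 2 (0.015) or LRP5-null replicate 1 (0.016).

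With ribosomal share as a covariate the sign changed in Ftl1 (−0.27), Tfrc (0.032), Slc11a1 (−0.0088), Ncoa4 (−0.12), Pcbp1 (−0.087), Lcn2 (−0.074), Ltf (−0.013) and Alas1 (−0.088). Against WT replicate 3 alone it changed in Ftl1 (−0.47), Tfrc (0.12), Slc11a1 (−0.067), Ncoa4 (−0.17), Pcbp1 (−0.13), Lcn2 (−0.14), Ltf (−0.054), Furin (−0.023) and Alas1 (−0.17). With GC and length trends removed it changed in Tfrc (0.078), Pcbp2 (0.016), Pcbp1 (−0.11), Lcn2 (−0.049) and Alas1 (−0.0066). Median-ratio scaling turned Slc40a1 (−0.023), Ncoa4 (−0.021) and Pcbp1 (−0.021). Quantile normalization turned Pcbp2 (0.024), Lcn2 (−0.079), Ltf (−0.094) and Hmox1 (0.0037), and rescaled TPM turned Pcbp2 (0.0073) and Hmox1 (0.016).

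The replicate numbers are shared only as numbers: same-numbered libraries correlated in their deviations from the group means at 0.229, −0.0075 and 0.131, and not every library correlated best with its own number. With the replicate block, limma called 0 iron genes, 0 wider genes and 4 of 9775 genes. The blocked ratio differences, −0.25, −0.05 and −1.95, and −0.02 for the ferritin sum, equal the unblocked ones by arithmetic. TPM gives no counts, so the counting error of the low genes Slc11a2 and Aco1 is unknown, and 3 libraries a group cannot give an exact p below 0.1.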
